A study of Mus musculus with 33 samples.

Results

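Spleen and lymph node RNA from tumour-free mice was sequenced after nicotinamide (NAM) supplementation, and the comparison described here is that of 14 days of NAM with no treatment among libraries labelled lymph node. Its members were chosen by their sample titles, 4 libraries at 14 days and 3 untreated, which are 7 of the 33 libraries of the series. All animals were C57Bl/6 mice, the labels give no age, and the study's methods give female animals and, for all experiments together, an age range in weeks that is not tied to these libraries. NAM, the amide form of vitamin B3 and a precursor of the coenzyme NAD, was given at 0.5% in the drinking water, and the labels name no other agent or allele in either group. The same label holds 4 libraries at 3 days and 2 at 1 day, and 20 libraries are labelled spleen. The question was which transcripts of the organ differ after prolonged NAM intake, with erythroid and interferon genes taken apart from the rest. The titles number the libraries of a group without naming the animal of each, so p-values measure the spread between libraries, which may in part be technical.

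Polyadenylated RNA was measured, extracted freshly from removed organs by the labels, while the study's methods describe tissue kept in RNAlater and its results speak of cells. Whole reads per library numbered 31625621 to 34898008 in the untreated group and 30424968 to 42634672 at 14 days. The tissue markers went against the label. Spic, which directs the formation of red pulp macrophages in the spleen, ranged from 6117 to 10490 normalised read counts over the 13 libraries of the lymph node label and from 774.3 to 1295 over those of the spleen label. Glycam1, a mucin made by the high endothelium of lymph nodes, had 1.585 to 12.38 under the lymph node label and 108200 to 214200 under the spleen label. Of 9 spleen markers, 9 were higher in every library of the lymph node label than in any of the spleen label, among them Tlx1 and Nkx2-5, which are required for spleen development. Of 7 lymph node markers, 4 lay the other way round (Glycam1, Lyve1, Chst4 and Ccl21a), 2 overlapped and Madcam1 was higher under the lymph node label. The label is therefore used below as a name only. Within it 1 day replicate 1 stood apart, at 65.01 on the first principal component, where the other 12 libraries lay between -18.45 and 6.14. Its mean log2(normalised read count + 1) over pancreatic acinar genes was 13.539, against 1.67 to 2.305 in the others, and without it in the fit 90 genes passed at 14 days in place of the 144 given below. A normalised read count is a library's read count for a gene divided by its DESeq2 size factor, and all log2 differences are of normalised read count + 1. Some rows of the table span exons of a neighbouring protein-coding gene, whose reads could be counted with them. These are, of the genes named below that were checked, Pklr (Hcn3), Irf7 (Phrf1), Alas2 (Apex2), Prdx2 (Junb and Rnaseh2a), Sptb (Plekhg3), Cxcl10 (Art3), Igtp (Irgm2), Atp7b (Alg11), Slc25a21 (Pax9), Asb17os (Asb17), 9430091E24Rik (Pdpr), Slc48a1 (Hdac7), Gpr171 (Med12l), Tmem176b (Tmem176a) and Ackr4 (Acad11), and other rows span exons of non-coding or predicted genes. Tissue markers other than Spic and Ackr4, and list members named outside the rule of choice given below, were not checked.

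At 14 days, 144 of 18215 genes (0.791%) passed the threshold of adjusted p under 0.05 by limma, 20 higher (0.11%) and 124 lower (0.681%) than in untreated libraries. Among the 124 lower genes, 26 belonged to a list of erythroid genes and 10 to a list of interferon genes, and the other 88 to neither. All of the 20 higher genes belonged to neither list. For each of the 144 genes the 14 day and untreated libraries did not overlap, while over all genes tested the 14 day libraries lay below all untreated ones for 6.02% and above them for 5.49%. Without untreated replicate 2, which was the highest untreated library in 81 of the 124 lower genes, 31 genes passed, 28 of them among the 144. In 52 genes the fall was at least 2-fold on this scale, and 3 genes rose at least 2-fold. Over all genes 49.4% of differences were below 0, and the median was 0.00. Fewer cells of a type and less RNA per cell cannot be told apart in bulk RNA, here or in any group below.

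Red blood cells form in marrow, and in mice also in the splenic red pulp, from progenitors that are driven by erythropoietin and by the transcription factors GATA1 and KLF1. These cells take up iron, make haem and globin, and build a spectrin-based membrane skeleton. They finally lose the nucleus to become reticulocytes, which then lose their organelles. Of the 67 erythroid genes tested, 26 fell and 0 rose, against 0.681% of all genes lower, and the median log2 difference was -1.13. In 66 of 67 the difference was below 0, and in 60 of 67 the 14 day libraries all lay below the untreated ones. Over all genes these shares were 49.4% and 6.02%. The only gene above 0 was Slc2a1, the glucose transporter, at 0.03.

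Gfi1b and Epor, 2 of the erythroid genes that fell, are shown with the 250 bases before their RefSeq transcription start on GRCm38.p6, because the letters bound by GATA factors and by KLF1-like factors can be read there. Gfi1b lies on the minus strand at chr2:28621983-28622232 and Epor on the minus strand at chr9:21963577-21963826. The Gfi1b window reaches into the first bases of its row in the table, which ends at 28621991, and the Epor window lies just outside its row. Capitals mark a match, on either strand, to a GATA motif (AGATAA or TGATAA) or to a CACCC box (CCACACCC or CCNCNCCC, the first contained in the second).
Gfi1b: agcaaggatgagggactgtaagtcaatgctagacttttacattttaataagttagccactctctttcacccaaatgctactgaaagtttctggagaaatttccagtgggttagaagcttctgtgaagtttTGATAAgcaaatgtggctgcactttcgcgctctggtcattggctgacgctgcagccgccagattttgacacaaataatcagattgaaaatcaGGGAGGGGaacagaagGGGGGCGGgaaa
Epor: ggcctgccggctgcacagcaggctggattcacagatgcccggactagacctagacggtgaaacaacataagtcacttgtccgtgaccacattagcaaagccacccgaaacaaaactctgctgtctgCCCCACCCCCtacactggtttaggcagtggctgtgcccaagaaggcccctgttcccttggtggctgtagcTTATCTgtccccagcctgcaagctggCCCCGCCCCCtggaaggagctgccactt
Promoter windows were at hand for 19 of the 26 erythroid genes that fell, 30 windows in all. A GATA motif stood in 7 of the 30 windows (23.3%) and in 16.6% of all 32851 windows of the table, and a CACCC box in 22 (73.3%) and in 45.9%. These are letter matches and were not tested.

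Transcription factors and the erythropoietin receptor fell in 4 of 9 cases, with a median log2 difference of -1.17. Gfi1b, a repressor required for erythroid and megakaryocyte differentiation, had 256.2, 459.8 and 243.1 normalised read counts in the untreated libraries and 57.06, 61.34, 57.18 and 73.85 at 14 days. Its log2 difference was -2.28 ± 0.21 (SE; limma adjusted p 5.9e-05), and the 4 treated libraries lay within a narrow band far below the untreated ones. Gata1, the master regulator of the lineage, had 315.4, 610.9 and 361.3 against 148.2, 100.2, 149.8 and 186.6, a log2 difference of -1.52 ± 0.21 (SE; limma adjusted p 0.00247). Epor, the receptor for erythropoietin, had 261.3, 444.4 and 384.5 against 186.3, 140.8, 131.5 and 175.6, a log2 difference of -1.17 ± 0.18 (SE; limma adjusted p 0.00474). Klf1, the activator of the adult beta-globin gene, varied more among treated libraries, from 64.99 to 202.6, and it fell by 2.14 ± 0.48 on the log2 scale (SE; limma adjusted p 0.0486). Tal1, Nfe2, Zfpm1, Bcl11a and Hemgn were not past the threshold, with log2 differences of -1.13, -0.92, -0.48, -0.27 and -1.79.

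Haem synthesis was lower in 3 of 12 genes, with a median of -0.42. Fech, which inserts iron into the ring, had 2238, 2048 and 2622 in untreated libraries and 1327, 1202, 1240 and 1609 at 14 days, a log2 difference of -0.78 (limma adjusted p 0.00474). Urod, a decarboxylase of the pathway, differed by -0.40 (limma adjusted p 0.0366). Alas2, the erythroid enzyme of the first step, was at 27040, 12950 and 21300 against 8956, 7092, 8523 and 10580. Its groups did not overlap, but its log2 difference of -1.17 ± 0.40 (SE) was not past the threshold, with a limma adjusted p of 0.231. Iron uptake fell in 3 of 4 genes: Tfr2, the second transferrin receptor, by 1.90, Steap3, the endosomal ferrireductase, by 1.13, and Slc25a37, the mitochondrial iron importer mitoferrin, by 0.35 on the log2 scale. For Tfr2 the untreated values were 166.4, 368.3 and 156.9 and the 14 day values 49.14, 46.65, 89.2 and 48.9.

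The haemoglobin chains made up the largest counts of the list and were not past the threshold. Hbb-bs, an adult beta chain, had 1153000, 570500 and 909300 in untreated libraries and 410700, 307700, 374500 and 452600 at 14 days, a log2 difference of -1.14 ± 0.36 (SE; limma adjusted p 0.192). Hba-a1, an alpha chain whose copy Hba-a2 is near-identical so that reads can be shared, had 987600, 466500 and 749200 against 362900, 257100, 350000 and 388300, a log2 difference of -1.06 ± 0.38 (SE; limma adjusted p 0.256). For Hba-a2 the log2 difference was -1.07 and for Hbb-bt it was -1.27. The 4 haemoglobin genes together took 8.50%, 4.11% and 6.68% of all reads in untreated libraries and 3.19%, 2.32%, 2.88% and 3.35% at 14 days. The untreated libraries stood in different orders for different roles. Replicate 2 was the lowest of them for these 4 genes and for Alas2, yet the highest of them for 20 of the 26 erythroid genes that fell, including Gata1, Klf1 and Gfi1b.

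**Figure D1:**
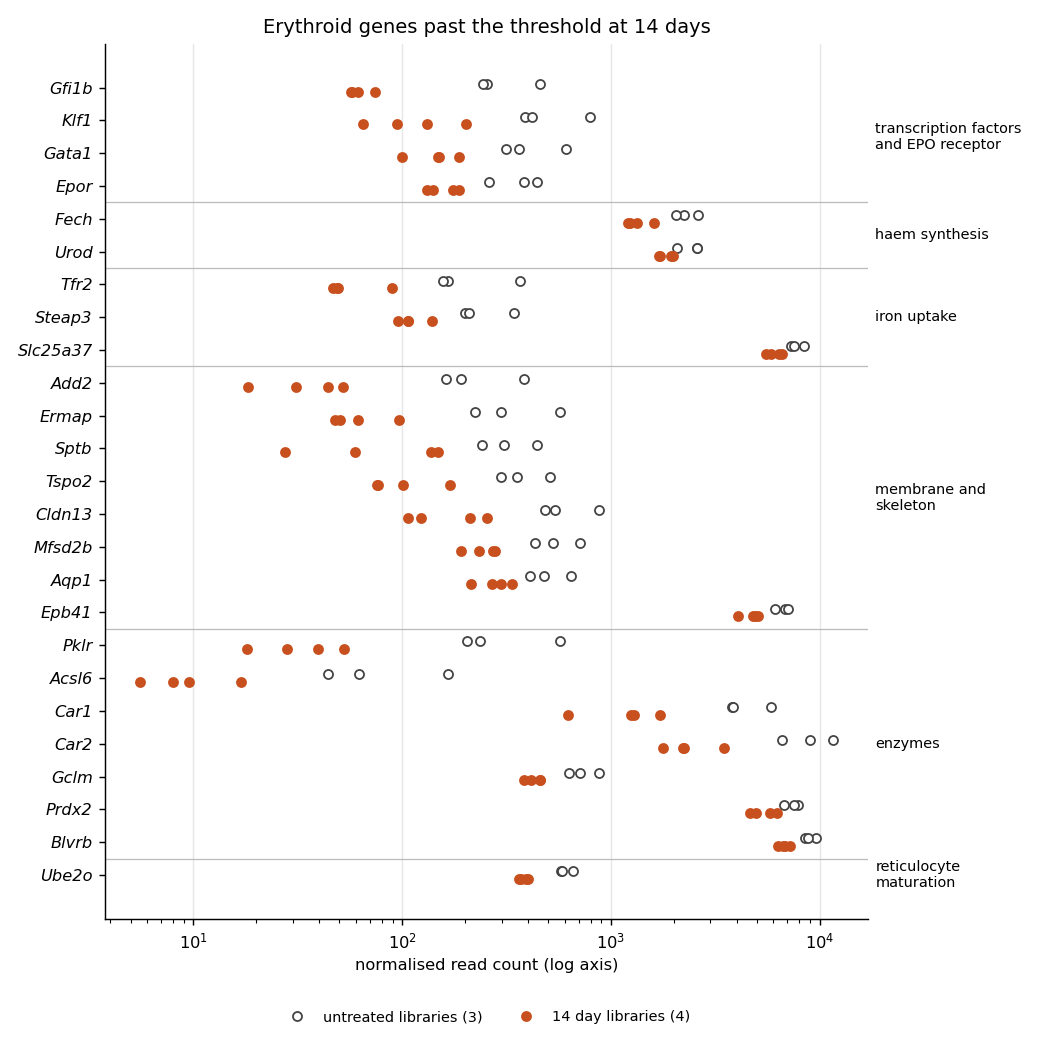
Normalised read counts (log axis) of 25 of the 26 erythroid genes past the threshold, one row per gene and grouped by role, with open points for the 3 untreated libraries and filled points for the 4 libraries at 14 days. In each row all filled points lie left of all open points, and the gap is widest for Pklr and Acsl6 among the enzymes.

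Genes of the red cell membrane and its skeleton formed the role with the lowest median, -1.91, and 8 of 21 passed. Add2, the beta subunit of adducin, had 161.3, 381.5 and 192.3 in untreated libraries and 18.23, 51.83, 30.88 and 43.91 at 14 days, a log2 difference of -2.72 ± 0.60 (SE; limma adjusted p 0.0436). Sptb, erythroid beta spectrin, had 241.9, 444.4 and 308.3 against 59.44, 137.4, 27.45 and 148.7, a log2 difference of -2.06 (limma adjusted p 0.031). Ermap, a membrane protein of erythroid cells that carries the Scianna blood group, fell by 2.43 on the log2 scale, and Tspo2, a cholesterol-binding membrane protein of erythroblasts, by 1.91. Cldn13, a claudin, and Mfsd2b, an exporter of sphingosine-1-phosphate in red cells, fell by 1.90 and 1.17. Aqp1, the water channel, and Epb41, the skeletal protein 4.1, fell by 0.86 and 0.50. The anion exchanger Slc4a1, Epb42 and Rhag did not pass, with log2 differences of -2.35, -2.50 and -2.13 and standard errors of 0.72, 0.83 and 0.54. Slc4a1 had 1786, 2996 and 4685 in untreated libraries and 347.1, 985.7, 235.6 and 1323 at 14 days. In Slc4a1, Epb42 and Rhag alike, replicates 2 and 4 at 14 days were the higher pair and replicates 1 and 3 the lower pair.

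Enzymes of the red cell fell in 7 of 11 cases, with a median of -0.78. Pklr, the pyruvate kinase of liver and red cells, had 236.8, 569 and 205.5 in untreated libraries and 39.63, 18.14, 52.6 and 27.94 at 14 days. Its log2 difference of -3.20 ± 0.42 (SE; limma adjusted p 0.00239) was the lowest among the 144 genes past the threshold, and its row on chromosome 3 from 89136142 to 89146594 also covers exons of Hcn3 on the other strand. Acsl6, an acyl-CoA synthetase, had 62.26, 166.5 and 44.2 against 5.548, 9.503, 8.005 and 16.97, a log2 difference of -2.93 (limma adjusted p 0.0114). The carbonic anhydrases Car1 and Car2 differed by -1.94 and -1.91. Car2 had 6630, 11620 and 8978 in untreated libraries and 1768, 2205, 2248 and 3479 at 14 days, so that even the highest treated library lay well below the lowest untreated one. Gclm, of glutathione synthesis, Prdx2, a peroxiredoxin, and Blvrb, the biliverdin reductase of red cells, fell by 0.78, 0.45 and 0.41. Among 6 genes of reticulocyte maturation 1 passed. This was Ube2o, a ubiquitin ligase that clears proteins from reticulocytes, with 577.7, 585.5 and 657.5 against 371.7, 400, 363.7 and 390.2 and a log2 difference of -0.67 (limma adjusted p 0.0113). Trim10, of terminal erythroid differentiation, had 850.2, 989.1 and 2483 against 154.5, 362.8, 121.2 and 451.1, and at -2.44 ± 0.65 (SE) it was not past the threshold (limma adjusted p 0.0945).

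The erythroid calls depended on the libraries in the fit. Without untreated replicate 2, 9 of the 67 genes passed, without untreated replicate 3, 15, and with only the 2 groups in the fit, 18. From recovered reads edgeR gave 28 and DESeq2 36, all lower. Fech, Gata1, Epor, Pklr, Car2, Gfi1b, Gclm and Epb41 passed in each of 19 alternatives, which leave out the model with the erythroid score and the call by unadjusted p and 1.5-fold size.

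Interferons are cytokines that act through cell surface receptors and the kinases and STAT factors behind them, and they induce a broad set of antiviral genes. Type I interferons act through a complex of STAT factors and IRF9 on promoters that hold the interferon-stimulated response element, and interferon gamma acts through paired STAT factors and raises guanylate-binding and immunity-related GTPases. Of the 90 interferon genes tested, 10 fell and 0 rose, against 0.681% of all genes lower. The median log2 difference over the list was -0.24. In 78 of 90 the difference was below 0, while in 36 the 14 day libraries all lay below the untreated ones and in 3 above them. Over all genes these shares were 49.4%, 6.02% and 5.49%. Of the 90 genes 47 had an unadjusted p under 0.05, against 11.8% of all genes.

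The promoter windows of Isg15, Rsad2 and Ifit3 are shown because each holds the response element. Capitals mark 2 copies of TTTC that stand 2 bases apart, on either strand, and the windows are the 250 bases before the RefSeq start on GRCm38.p6. Isg15 lies on the minus strand at chr4:156200819-156201068, Rsad2 on the minus strand at chr12:26456453-26456702 and Ifit3 on the plus strand at chr19:34583279-34583528.
Isg15: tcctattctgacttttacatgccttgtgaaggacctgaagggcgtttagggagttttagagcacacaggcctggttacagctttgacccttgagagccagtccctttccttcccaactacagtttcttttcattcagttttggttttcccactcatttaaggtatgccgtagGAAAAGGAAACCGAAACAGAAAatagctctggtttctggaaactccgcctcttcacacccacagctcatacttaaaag
Rsad2: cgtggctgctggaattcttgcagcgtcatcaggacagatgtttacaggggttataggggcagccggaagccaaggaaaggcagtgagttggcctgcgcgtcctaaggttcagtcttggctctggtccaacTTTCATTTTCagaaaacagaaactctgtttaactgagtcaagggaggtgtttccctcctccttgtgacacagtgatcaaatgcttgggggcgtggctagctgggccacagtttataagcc
Ifit3: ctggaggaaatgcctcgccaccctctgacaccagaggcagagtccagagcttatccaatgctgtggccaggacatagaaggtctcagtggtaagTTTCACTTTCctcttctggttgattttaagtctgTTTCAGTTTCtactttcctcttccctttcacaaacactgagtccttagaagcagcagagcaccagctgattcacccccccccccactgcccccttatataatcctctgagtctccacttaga
In Isg15 3 matches overlap one another, and Ifit3 holds 2 that do not. Windows were at hand for 5 of the 10 interferon genes that fell, 7 windows in all, and 3 of the 7 (42.9%) held the element, as did 3.0% of all windows. Isg20 and Irf7 had no match in theirs.

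Type I effectors held 7 of the 10 genes that fell. Rsad2, the antiviral enzyme viperin, had 216.4, 308.8 and 527.1 normalised read counts in untreated libraries and 100.7, 111.4, 112.1 and 116.8 at 14 days, a log2 difference of -1.57 ± 0.22 (SE; limma adjusted p 0.0029). The treated libraries were close to one another and the untreated ones spread widely. Isg15, a ubiquitin-like modifier, had 2267, 3017 and 3356 against 1357, 1291, 1878 and 1814, a log2 difference of -0.86 ± 0.15 (SE; limma adjusted p 0.0138). Isg20, an exonuclease, had 3898, 3397 and 3599 against 1908, 1963, 1840 and 2357, a log2 difference of -0.85 ± 0.11 (SE; limma adjusted p 0.00164). Of the 10, only Isg20 and Rsad2 passed without untreated replicate 2, and 3 interferon genes passed without untreated replicate 3. The antiviral effectors Ifit3, Oas2 and Mx1 fell by 0.81, 0.80 and 0.79, and Rtp4, a chaperone of membrane receptors, by 0.49 (limma adjusted p 0.0489). Ifit1, Oasl2 and Usp18, at -0.83, -0.59 and -0.53, did not overlap between the groups but had limma adjusted p of 0.0907, 0.0724 and 0.091.

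Among transcription factors 2 of 8 passed. Irf7, the amplifier of type I interferon production, had 5588, 7594 and 7226 in untreated libraries and 3957, 4410, 4923 and 4292 at 14 days, a log2 difference of -0.62 ± 0.11 (SE; limma adjusted p 0.0138), in a row that also covers exons of Phrf1. Stat2, a subunit of the complex that acts on the response element, was at -0.31 and had a limma adjusted p of 0.051. Of 10 sensors 1 passed, Dhx58, a RIG-I-like helicase also called LGP2, which fell by 0.53. Zbp1, the sensor of Z-form nucleic acids, was at -0.38 (limma adjusted p 0.117). None of 17 interferon gamma GTPases passed, with a median of -0.12, and Gbp2 and Igtp were each at -0.12. The 4 receptor genes lay at 0.11 to 0.15, and none passed. Among chemokines Cxcl10 had 2661, 2650 and 3016 against 2000, 2139, 2327 and 2273, a log2 difference of -0.34 (limma adjusted p 0.0891), and Cxcl9 was at 0.16. Of 7 ligands only Ifng could be tested, at -0.46 (limma adjusted p 0.395), and Ifnb1 had reads in 1 of the 7 libraries, at 1.585 normalised read counts.

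**Figure D2:**
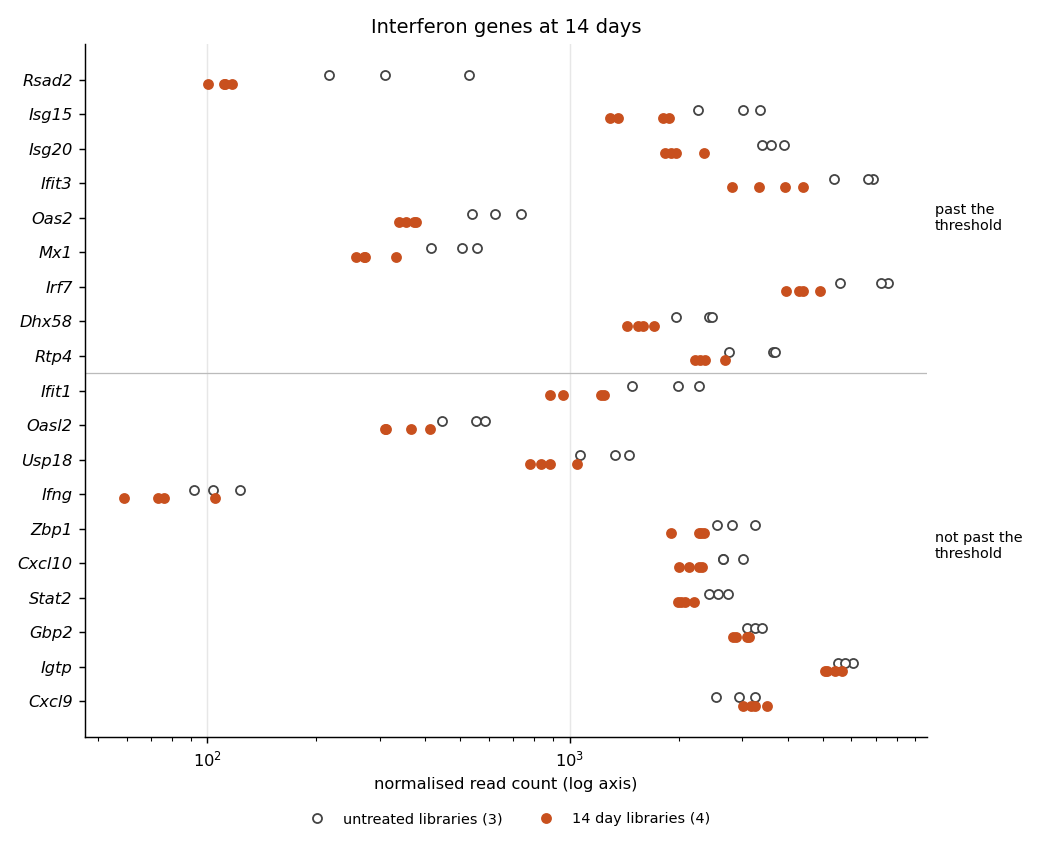
Normalised read counts (log axis) of 9 of the 10 interferon genes past the threshold, above the line, and of 10 panel genes that were not, below it, with open points for the 3 untreated libraries and filled points for the 4 at 14 days. Filled and open points do not overlap above the line, and below it Ifng, Gbp2, Igtp and Cxcl9 overlap.

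Apol9b, Gbp10 and Ube2l6 are outside the list, the last 2 being named after their values were seen. They fell by 0.83, 0.88 and 0.73 (limma adjusted p 0.0279, 0.036 and 0.0233). Apol9b is an interferon-inducible apolipoprotein L, Gbp10 a guanylate-binding protein, whose family members can share reads, and Ube2l6 the enzyme that conjugates ISG15. Ube2l6 had 8681, 6393 and 8253 in untreated libraries and 4701, 4064, 4691 and 5186 at 14 days.

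The remaining 108 genes made up 75.0% of those past the threshold, 20 higher and 88 lower, and 62 of them also passed at 3 days. The 2 lists do not hold every erythroid or interferon gene, and Apol9b, interferon-inducible, is among the 108. How many of the 108 are expressed in erythroid cells was not tested. Of them, 14 belonged to another of 23 lists, whose counts stand against the 0.681% of all genes lower and 0.11% higher. Neutrophil precursor granule genes had a median of -0.76, with 3 of 18 lower. Mpo, myeloperoxidase, had 1142, 1038 and 491.7 in untreated libraries and 265.5, 368.9, 296.2 and 199.6 at 14 days, a log2 difference of -1.59 ± 0.31 (SE; limma adjusted p 0.0217). Prtn3 and Elane, the azurophil granule proteases, differed by -1.37 and -1.24 (limma adjusted p 0.027 and 0.037). In all 3 genes untreated replicate 3 was the lowest of its group, and for Elane its 213.3 stood near the highest treated value of 192.1. Ltf, Ngp and S100a8, of later granules and cytosol, overlapped between the groups at -1.07, -1.06 and -0.77.

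Cell cycle genes were below 0 in 39 of 40 cases, with a median of -0.34, and 2 fell. Over all genes 49.4% were below 0, here and for the lists that follow. Rrm2, a subunit of ribonucleotide reductase, was at 1366, 1799 and 1372 against 787, 1311, 825.7 and 872.3, and Ccne1, cyclin E1, differed by -0.71. Platelet genes had a median of -0.59 with 18 of 19 below 0, and 1 fell, Gp5, a subunit of the von Willebrand factor receptor, at -0.77 (limma adjusted p 0.0436). Pf4 and Ppbp, abundant platelet chemokines, were at -0.61 and -0.62 and did not pass. Among progenitor genes Myb, a regulator of haematopoietic progenitors, fell by 0.51 (limma adjusted p 0.0147), the only 1 of 14.

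Iron recycling takes place in red pulp macrophages, which break down aged red cells. Of 20 genes tested for these cells, 2 fell. Hmox1, haem oxygenase, had 42580, 47370 and 39210 in untreated libraries and 22880, 19960, 35170 and 23460 at 14 days, a log2 difference of -0.79 ± 0.16 (SE; limma adjusted p 0.0304). Ftl1, the ferritin light chain, was at 73750, 81630 and 70460 against 56950, 53340, 63690 and 57830, a log2 difference of -0.38 (limma adjusted p 0.0304). Replicate 3 was the highest treated library in both. Slc40a1, the iron exporter ferroportin, at -0.47, and Spic, at -0.35, had limma adjusted p of 0.055 and 0.116. Slc48a1, a haem transporter, named after its values were seen, fell by 0.36.

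B cell, T cell, plasma cell, cytotoxic lymphocyte and dendritic cell lists had 0 genes past the threshold by limma, with medians of -0.02 to 0.08. At an unadjusted p under 0.05 there were 0 of 16, 3 of 18, 1 of 11, 0 of 14 and 3 of 14, against 11.8% of all genes. From recovered reads edgeR also gave 0 in each of these lists, and DESeq2 gave 1, the T cell gene Il7r, the interleukin 7 receptor, which was higher.

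**Figure D3:**
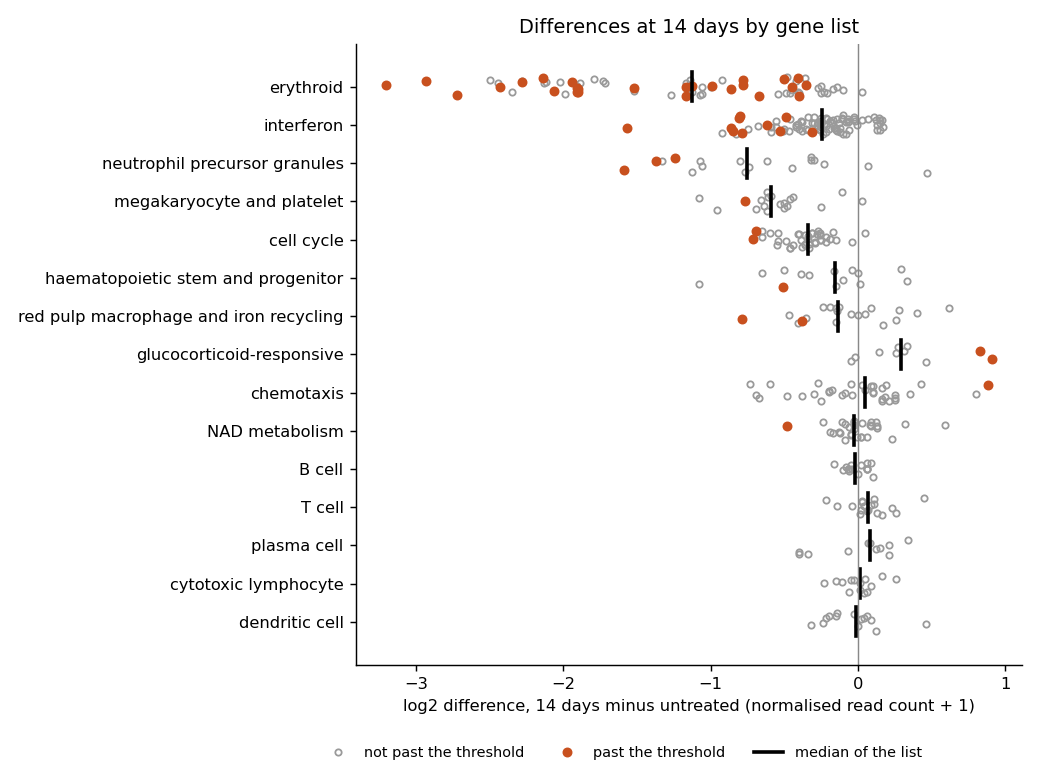
Log2 differences (14 days minus untreated, normalised read count + 1) of the genes of 15 lists, one point per gene, filled where past the threshold, with the list median as a bar. The erythroid median stands at -1.13 and the interferon median at -0.24, and the lymphocyte medians lie near 0.

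The genes that rose were led by Gpat2, a mitochondrial glycerol-3-phosphate acyltransferase, but from few reads. It had 8.165, 4.411 and 8.84 normalised read counts in untreated libraries and 26.95, 36.28, 20.58 and 26.95 at 14 days, a log2 difference of 1.84 ± 0.38 (SE; limma adjusted p 0.031). Cxcr4, the receptor for CXCL12 that guides lymphocytes and progenitors, had 4555, 4522 and 6536 against 9096, 8731, 9146 and 10960, a log2 difference of 0.88 ± 0.13 (SE; limma adjusted p 0.00376). It passed in each of the 19 alternatives. Ddit4, an inhibitor of mTORC1, had 3754, 3508 and 5841 against 10080, 8014, 7389 and 6919, a log2 difference of 0.91 (limma adjusted p 0.0233). Tsc22d3, also known as GILZ, had 9518, 10960 and 16810 against 22570, 18580, 22030 and 22920, a log2 difference of 0.83 (limma adjusted p 0.0153). Both belong to a list of 10 glucocorticoid-responsive genes, whose median was 0.29 and of which the other 8 did not pass, among them Fkbp5 at 0.33 and Per1 at 0.31. In Cxcr4, Ddit4 and Tsc22d3 untreated replicate 3 was the highest of its group and still lay below all treated libraries. Errfi1, an inhibitor of EGFR, and Rasl11b, a small GTPase, rose by 0.75 and 0.73. Plekhf1, Gm16316, Gm2629, 9430091E24Rik, Rsrp1 and Dapl1 rose by 0.57, 1.14, 0.65, 0.56, 0.44 and 0.38. The row GSMG0043226, on chromosome 17 from 6611492 to 6612030 outside annotated genes, rose by 1.39. The row GSMG0008434, singled out after its values were seen, had 1995, 1829 and 2126 against 3956, 3529, 3905 and 4226. It lies on chromosome 12 from 99643091 to 99647220 of mm10 over exons of the long non-coding RNA Gm19951, and its log2 difference of 0.98 ± 0.09 (SE) shared with Gfi1b the smallest limma adjusted p, 5.9e-05.

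Among the genes on neither list with the largest falls, Slc38a5, a glutamine transporter, had 279.7, 565.7 and 278.5 in untreated libraries and 62.61, 50.11, 69.76 and 123.8 at 14 days, a log2 difference of -2.27 (limma adjusted p 0.00325). Ces2g, a carboxylesterase, had 588.9, 1052 and 547 against 166.4, 127.9, 156.7 and 167.7, a log2 difference of -2.17 (limma adjusted p 0.00137). Mt2, a metallothionein, had 608.3, 878.9 and 569.1 against 187.8, 129.6, 299.6 and 237.5, a log2 difference of -1.72 (limma adjusted p 0.0041). Atp7b, a copper-transporting ATPase, and Slc25a21, a mitochondrial carrier, differed by -2.14 each. Bex4, Prss50, Tspan8, Asb17os, Gdf3, Sdsl and Garem were at -2.75, -2.71, -2.35, -2.14, -1.90, -1.80 and -1.74. The row GSMG0023582, within an intron of Gpcpd1 on chromosome 2 from 132559007 to 132561682, fell by 1.41. Apol8, chosen because of an earlier result at 3 days, was at -2.31 and did not pass (limma adjusted p 0.231).

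NAD metabolism, which NAM feeds, had 1 of 30 genes past the threshold, against 0.791% of all genes, and a median of -0.03. Nadk2, the mitochondrial NAD kinase, had 605.3, 737.7 and 738.1 in untreated libraries and 454.1, 457.9, 530.6 and 537.9 at 14 days, a log2 difference of -0.48 ± 0.10 (SE; limma adjusted p 0.037). Hcar2, the receptor for nicotinic acid, named after its values were seen, had 1728, 1663 and 1717 against 1511, 1129, 1260 and 1173, a log2 difference of -0.43 (limma adjusted p 0.0489), and it passed in 5 of 19 alternatives.

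The shorter durations share the untreated libraries with this comparison, so their values are set side by side only. For Gfi1b the log2 difference from untreated was -1.24 at 1 day, -2.23 at 3 days and -2.28 at 14 days, and for Pklr it was -2.12, -3.27 and -3.20. Over the erythroid list the medians were -0.41, -1.23 and -1.13 in that order. The list mean per library, the mean of log2(normalised read count + 1) over its genes, ranged from 8.691 to 9.347 at 14 days. It ranged from 9.944 to 10.365 in untreated libraries, from 9.555 to 9.765 in the pair at 1 day and from 7.88 to 8.967 in the 3 day group. At 3 days 48 of the 67 erythroid genes and 2 of the 90 interferon genes were lower and past the threshold, where 0.906% of all genes were lower and 1.24% passed in either direction. These included 25 of the 26 erythroid genes past it at 14 days and, of the 10 interferon genes, Isg20 and Rsad2. At 1 day 2 erythroid genes and 0 interferon genes were lower, where 0.329% of all genes were lower and 1.21% passed in either direction. For Irf7 the log2 differences were -0.34, -0.04 and -0.62, for Ifit3 -0.33, -0.14 and -0.81, and for Isg15 -0.26, -0.33 and -0.86. Mpo was at -0.02, -0.17 and -1.59, and Elane at 0.49, 0.40 and -1.24. Ddit4 was at 1.93, 0.66 and 0.91, Cxcr4 at 1.56, 0.76 and 0.88, and Errfi1 at 2.35, 0.53 and 0.75. The 1 day values rest on 2 libraries, of which replicate 1 carried the pancreatic genes. Without it, which leaves no replicate at 1 day, Gfi1b was at -1.31 and Pklr at -1.68, and the erythroid median was -0.24. Irf7, Ifit3 and Isg15 were then at -0.10, 0.14 and 0.06, Mpo and Elane at -0.53 and 0.18, and Ddit4, Cxcr4 and Errfi1 at 1.86, 1.65 and 2.51.

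Compared directly, 14 and 3 days differed in 2 of 18215 genes (0.011%) by limma, both lower at 14 days, while 1064 (5.84%) had an unadjusted p under 0.05. These were Cxcl10, by -0.64 (limma adjusted p 0.0112), and Elane, by -1.64 (limma adjusted p 0.0371). From recovered reads edgeR gave 1 gene and DESeq2 51, and 0 passed by limma without 14 day replicate 2, without 3 day replicate 1 or without 3 day replicate 3. In the interferon list 80 of 90 genes were lower at 14 than at 3 days, with a median of -0.19, and in the neutrophil precursor list 15 of 18, with a median of -1.16. In the erythroid list 53 of 67 genes were higher at 14 than at 3 days, with a median of 0.19, and 0 passed by limma, while 17 had an unadjusted p under 0.05. Over all genes 9049 of 18215 were lower at 14 than at 3 days, and the median was 0.00.

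**Figure D4:**
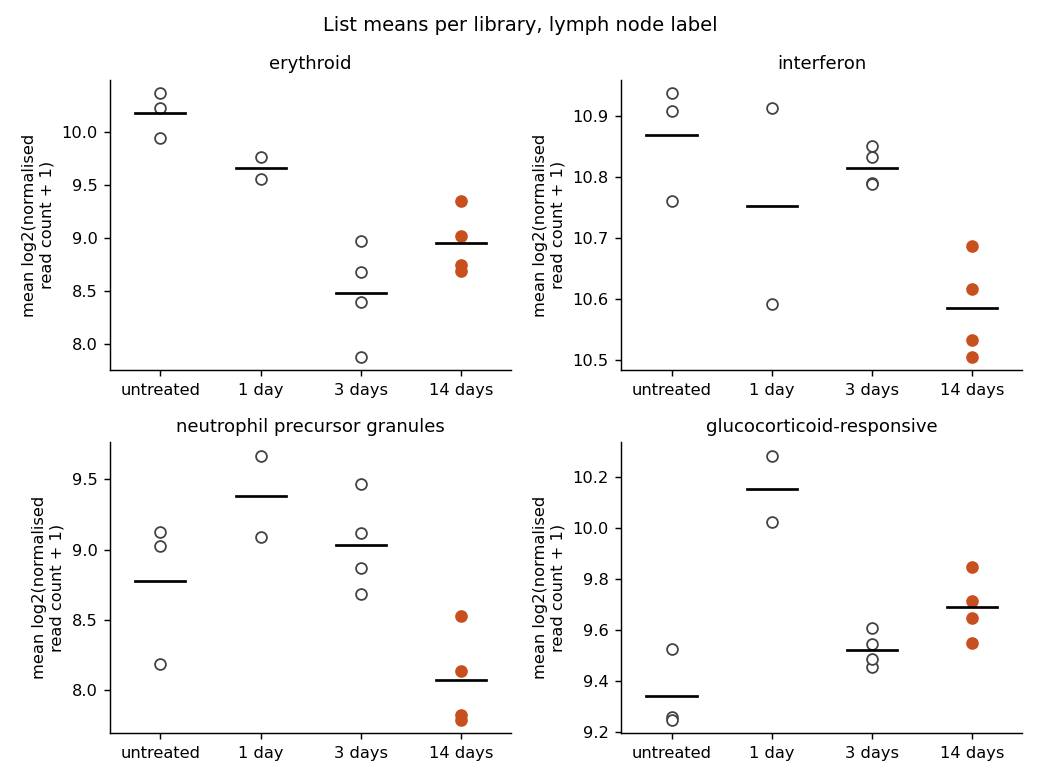
Mean log2(normalised read count + 1) of 4 gene lists in each of the 13 libraries labelled lymph node, by duration of NAM, with 14 day libraries filled and the group mean as a bar. The axes do not start at 0. In the erythroid panel the 14 day libraries lie below all untreated ones and overlap those at 3 days, and in the interferon panel they lie below all untreated and 3 day libraries.

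Under the spleen label, 14 days of NAM gave 0 genes past the threshold by limma among 18243, and 510 (2.8%) had an unadjusted p under 0.05. From recovered reads edgeR gave 0 there and DESeq2 1. Of the 90 interferon genes 12 were below 0 there, with a median of 0.11, as were 8420 of 17147 genes tested under both labels, with a median of 0.00. Ifit3 was at 0.68 and Isg15 at 0.37. Of the erythroid genes 53 could be tested there, and their median was 0.01, with haemoglobin at no more than 0.0812% of reads in any library of the spleen label. The difference between the labels was not tested.

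The erythroid list moved with the comparison as a whole, so its mean per library was also added to the model. The score and the treatment move together, and the median standard error over all genes went from 0.128 to 0.241. By limma 0 genes passed, and 821 of 18215 (4.51%) had an unadjusted p under 0.05. Over the whole interferon list 11 of 90 genes had such a p, and the median went from -0.24 to -0.12. For Rsad2 the log2 difference with the score was -1.08, for Isg20 -0.54, for Irf7 -0.56 and for Mx1 -0.81. Mpo was at -2.23, Cxcr4 at 0.99, Ddit4 at 0.97, Gpat2 at 2.10 and GSMG0008434 at 1.02. Bex4 went to -0.32, Tspan8 to -0.45 and Slc38a5 to -0.76. Erythroid genes are part of the score and were left out of this model's account.

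**Figure D5:**
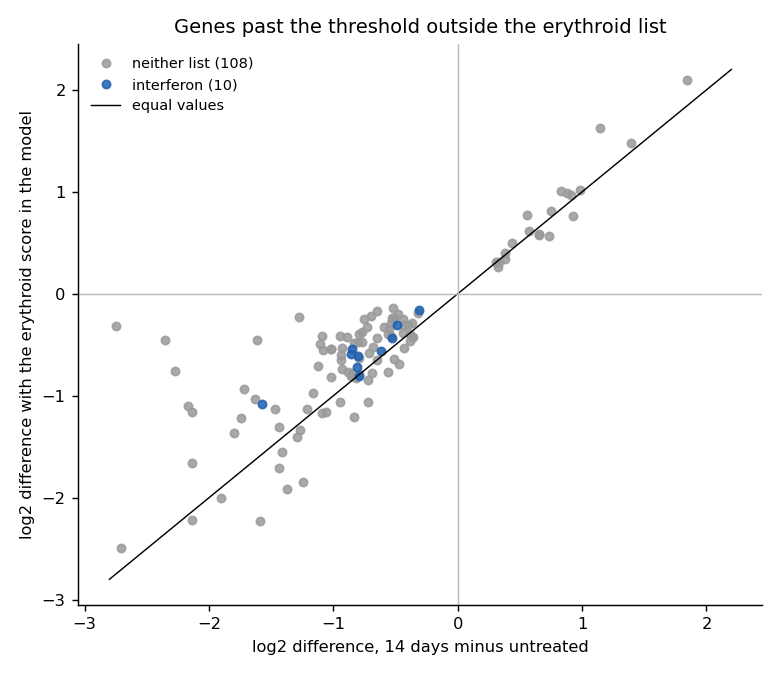
Log2 difference at 14 days, with (vertical axis) and without (horizontal axis) the erythroid list mean in the model, for the genes past the threshold outside the erythroid list, 10 on the interferon list and 108 on neither, with a line of equal values. The 10 interferon points lie between -1.57 and -0.31 without the mean and between -1.08 and -0.16 with it, while Bex4 and Tspan8, at -2.75 and -2.35 on the horizontal axis, lie at -0.32 and -0.45 on the vertical one.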

How the data were processed

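The table deposited by the authors holds normalised read counts, a signal per gene and library: reads aligned with STAR 2.4.0 to mm10 per the labels, counted, and divided by DESeq2 size factors. Whether counting used strand is not given in the sources used here. Dividing each column by the value of 1 read gave whole reads for 100% of values (tolerance 0.01), and depths and the edgeR and DESeq2 alternatives use those reads. Of 56414 rows, 30657 carry no gene symbol and 639 carry several. All 33 library columns were mapped to samples by name, with 0 left over. Among 16 replicate pairs of the lymph node label 0 held the same values, and read counts differed between the 2 libraries of a pair by a chi-square of at least 11.08 per degree of freedom.

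Genes with a mean of at least 10 over the 13 libraries of the label were kept, and log2(value + 1) was fitted by limma 3.58.1 (R 4.3.3, trended variance) with the 4 groups of the label in 1 model. Tests were two-sided, with Benjamini-Hochberg adjustment over all 18215 genes and a threshold of 0.05. The pipeline was tested on simulated data. Alternatives were pseudocounts of 0.5 and 5, no filter or a mean of at least 50, TMM and quantile scaling, the 2 groups alone, library weights, a replicate block, edgeR 4.0.16, DESeq2 1.42.0, a call by unadjusted p and 1.5-fold size, the erythroid mean as a covariate, and each replicate left out.

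The comparison, its 25 gene lists and its tests were chosen with earlier results of these data known. Named were a fixed panel of erythroid and interferon genes, the genes past the threshold in those 2 lists, and, of non-overlapping genes past it on neither list, the 12 largest rises and falls with 1 symbol and the largest of each without one. Of every other list, genes past the threshold were named, or the gene with the smallest p where there was none, and Apol8 and Gpat2 were added from earlier results. Outside this rule, list members that did not pass were named, among them Slc2a1, Nfe2, Zfpm1, Bcl11a, Hemgn, Slc40a1, Ltf, Ngp, S100a8, Pf4, Ppbp, Fkbp5 and Per1. Overlapping genes were read from GENCODE vM21 and promoter windows from RefSeq. A few genes that this rule names are not reported here.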

Additional observations from a re-analysis of the deposited data

Results flagged for a closer look

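In 6 of 136 sets of 14 day values 1 of the 4 libraries stood far from the other 3 by Dixon's criterion, which chance alone gives in about 1 of 20 sets. Replicate 1 stood apart in 3 of them: at 1901 normalised read counts for Zbp1, where the others had 2273 to 2348, at 1910 for Il7r, where the others had 1339 to 1375, and at 2254 for Col3a1, where the others had 1690 to 1736. For Tfr2 replicate 3 had 89.2 and the others 46.65 to 49.14. For Slc25a21 replicate 4 had 36.93 and the others 24.02 to 25.36. For Rrm2 replicate 2 had 1311 and the others 787 to 872.3.

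The difference between 14 and 3 days passed the limma test for Cxcl10, at -0.64 with an adjusted p of 0.0112, and for Elane, at -1.64 with an adjusted p of 0.0371.

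Among 112 named rows, 8 genes moved opposite ways under the 2 labels. In these, all 14 day libraries lay on one side of the untreated mean under the lymph node label and on the other under the spleen label. The share of all genes that do so is not given here, so the 8 cannot be set against it. For Ifit3 the log2 differences were -0.81 under the lymph node label and 0.68 under the spleen label, for Irf7 -0.62 and 0.25, and for Oas2 -0.80 and 0.22. For Rtp4 they were -0.49 and 0.39, for Sptb -2.06 and 0.33, for Ermap -2.43 and 0.44, and for Prtn3 -1.37 and 0.68. Ddit4 went the opposite way, at 0.91 and -0.30. The differences between the labels were not tested, and each of these genes had a limma adjusted p of 1 under the spleen label.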

How the results depend on the processing

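The median log2 difference over all genes was 0.002 with the authors' scaling, 0.001 with TMM and 0.014 with quantile scaling, and these gave 142 and 140 genes past the threshold against 144. With only the 2 groups in the fit 55 passed, of which 51 were among the 144, 5 interferon genes and 32 on neither list. Library weights gave 278 in all (70 higher), 19 and 231, and DESeq2 gave 382 (91 higher), 24 and 322. An unadjusted p with a 1.5-fold change gave 630 (195 higher), 44 erythroid and 573 on neither list. Without the filter on low values 6 interferon genes passed. With the erythroid mean in the model 0 passed in all, 0 interferon genes and 0 on neither list, and Apol8 turned from -2.31 to 2.46. The fit without 1 day replicate 1, chosen after seeing the data, gave 90 in all and 59 on neither list.

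Leaving out 1 replicate gave 31 to 159 genes in all, 9 to 29 erythroid, 2 to 13 interferon and 20 to 126 on neither list. The lowest values came without untreated replicate 2. Without untreated replicate 1 the total was 93 with 57 on neither list, and without untreated replicate 3 it was 85, with 15 erythroid, 3 interferon and 67 on neither list. Without 14 day replicate 1, 6 interferon genes passed, and without 14 day replicate 4, 6 interferon genes and 65 on neither list. Of the 144 genes 22 passed in each of 19 alternatives, the erythroid covariate and the 1.5-fold rule aside, 8 erythroid, 2 interferon and 12 on neither list. Values of single named genes were counted under all alternatives, except that erythroid genes were left out for the model with the erythroid mean. Of these, 1836 kept direction and side of the threshold, 390 lost the threshold, 55 gained it and 1 reversed.

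With the replicate number as a block 121 genes passed, 94 of them among the 144. Same-numbered libraries had deviations correlated at 0.005, 0.018 and -0.003. What the numbers stand for is not stated, and these few values cannot settle whether they pair the libraries.

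For 14 against 3 days all alternatives were chosen after seeing the data. The 2 groups alone gave 4 genes, the replicate block 4, edgeR 1 and DESeq2 51, and leaving out 1 replicate gave 0 to 9. The cause of these changes was not tested. Depth bears most on genes with few reads, such as Gpat2 with 4.411 to 8.84 normalised read counts in untreated libraries.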

Other observations

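The genes of this paragraph passed the threshold and were named after their values were seen. Asns, asparagine synthetase, had 445 to 806.1 normalised read counts in untreated libraries and 239.3 to 312.2 at 14 days, a log2 difference of -1.06 (limma adjusted p 0.00983). Slc43a1, a transporter of large neutral amino acids, fell by 1.02 on the log2 scale. Glrx5 and Isca1, which serve iron-sulphur cluster assembly, fell by 0.40 and 0.32 (limma adjusted p 0.0242 and 0.038). P2ry1, an ADP receptor of platelets, and Rgs18, a G protein regulator of platelets, fell by 0.86 and 0.43, and Orc1 and Cenpa, of replication origins and centromeres, by 0.95 and 0.38. Hpn, the membrane protease hepsin, had 259.3 to 444.4 against 106.3 to 127.6 (limma adjusted p 0.00242), and Ctse, the protease cathepsin E, 1179 to 1890 against 443 to 826.3. Gpr171, a G protein-coupled receptor, and Tmem176b, a membrane protein of myeloid cells, rose by 0.32 and 0.31 (limma adjusted p 0.0435 and 0.0398).

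Other lists held few or no genes past the threshold by limma. Chemotaxis held 1 of 35, Cxcr4, and apolipoprotein L 1 of 8, Apol9b. Values for the gene with the smallest p of most remaining lists follow, none past the threshold. Dnajb1, a heat shock cochaperone, was at 0.40, and Txnip, of the fasting list, also at 0.40. In the cholesterol synthesis list 0 of 17 genes passed. Mthfd1, of one-carbon metabolism, was at -0.34, Col3a1, of the collagen list, at -0.49, and Lpl, of the adipocyte list, at -0.31. Cela1, of the pancreatic list, was at -0.60 ± 0.51 (SE), and Ackr4, of the lymph node markers, at -0.58. The pancreatic list mean was 13.539 in 1 day replicate 1 and 1.67 to 2.305 elsewhere. Its genes thus lay near the floor in both groups compared, and the Cela1 value carries little information. In the lymphoid and dendritic lists Il7r was at 0.45, Klrb1c at 0.26, Sirpa at -0.32 and Ebf1 at -0.16, and the row shared by Slpi and Mir7678, of the plasma cell list, was at -0.34. Tfrc, the transferrin receptor of the erythroid list, was at -0.46 (limma adjusted p 0.251).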
